A study of Mus musculus with 8 samples.

Results

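Homeostatic-like microglia were the 8451 droplets, of 19821 microglia and 46216 kept droplets, in which the marker genes of microglia were detected and the genes of the injury response were low. A droplet was kept with at least 2000 unique molecular identifiers (UMIs, each counting 1 captured RNA molecule) and less than 20% of them from the mitochondrial genome. It counted as a microglial cell when UMIs of at least 3 of the 5 markers P2ry12, Tmem119, Sall1, Gpr34 and Siglech were found, with Col1a1 and Col1a2 together under 5 and Cldn5 and Flt1 together under 2 UMIs per 10000 (cp10k), which removed fibroblasts and endothelial cells. Of these, the homeostatic-like cells had a summed level of Lpl, Cst7, Itgax, Gpnmb and Igf1, called the injury score here, at or below the median of all microglia, and fewer than 3 detected genes each of a division set (Mki67, Top2a, Cenpf, Cdk1, Ccnb2) and an interferon set (Ifit2, Ifit3, Rsad2, Usp18, Oasl2). The remaining microglia were 7347 injury-responsive cells above the cut, 3275 interferon-responsive cells and 748 dividing cells. The cells were thus selected on the measured values of these genes, whose levels are described below without a test of 1 state against another.

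Single cells had been sequenced from the cortical lesion and the tissue around it 6 days after photothrombosis (PT), in which light-activated dye occludes cortical vessels. All 8 animals were female C57Bl/6J mice by the labels and had received PT. The 4 control mice were given saline and the 4 fibrinogen-depleted mice 2.4 U ancrod per day, in both groups from a subcutaneous osmotic pump implanted 2 days before PT. Ancrod is a snake venom protease that removes fibrinogen from plasma, and as fibrinogen is made in the liver, no transcript in these cells could check the treatment. Each mouse gave 1 library, and replicates 1 to 3 of both groups belonged to batch 1 and replicate 4 of both to batch 2. No uninjured tissue was sampled, so that homeostatic-like is a state relative to the other microglia of the same lesion and not to healthy cortex.

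Microglia are the resident macrophages of the brain parenchyma. In the undisturbed brain they survey their surroundings with motile processes, sense purines released by other cells through receptors such as P2ry12, depend on signalling through Csf1r for survival, and keep their identity through TGF-beta signalling and the transcription factors Sall1, Spi1, Mef2 and Irf8. After damage they lower some of these genes and induce a program linked to the receptor Trem2, with Apoe, cathepsins, Lpl, Spp1 and Gpnmb among its genes. Microglia also bear CD11b/CD18 (Itgam with Itgb2), an integrin to which fibrin and fibrinogen bind, and this is why the effect of fibrinogen depletion on these cells was of interest.

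The marker genes lie apart in the genome of the mouse (GRCm39). P2ry12 (ENSMUSG00000036353), an ADP receptor, spans chr3:59123682-59170429 on the minus strand. Tmem119, a transmembrane protein that serves as a microglia marker, spans chr5:113931781-113938577 on the minus strand, and Siglech, a sialic acid binding lectin, spans chr7:55417926-55429195 on the plus strand. Sall1, a zinc finger repressor, spans chr8:89753863-89770823 on the minus strand, and Gpr34, a lysophosphatidylserine receptor, spans chrX:13489625-13507116 on the plus strand. The promoters of the 3 markers with the largest ratio between homeostatic-like and injury-responsive cells are shown from 250 bases before to 50 bases after the start of the canonical transcript in the annotation, which for Siglech, Sall1 and Gpr34 lies inside the span of the gene, read from the reference genome on the strand of the gene. They lie at chr7:55417682-55417981, chr3:59170380-59170679 and chr5:113938528-113938827. Capitals mark GGAAGT or its reverse complement ACTTCC, letters of the core that ETS factors such as PU.1 (Spi1) recognise.
Siglech: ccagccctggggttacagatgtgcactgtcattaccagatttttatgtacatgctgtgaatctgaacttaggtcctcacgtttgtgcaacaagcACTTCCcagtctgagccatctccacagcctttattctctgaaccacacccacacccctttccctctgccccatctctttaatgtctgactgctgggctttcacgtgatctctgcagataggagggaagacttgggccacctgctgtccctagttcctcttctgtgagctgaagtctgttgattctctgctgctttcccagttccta
P2ry12: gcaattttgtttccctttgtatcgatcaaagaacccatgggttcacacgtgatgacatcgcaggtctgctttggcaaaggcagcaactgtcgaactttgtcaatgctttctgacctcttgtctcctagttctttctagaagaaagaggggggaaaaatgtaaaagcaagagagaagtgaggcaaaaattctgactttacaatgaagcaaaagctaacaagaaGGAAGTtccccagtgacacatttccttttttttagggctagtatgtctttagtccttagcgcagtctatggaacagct
Tmem119: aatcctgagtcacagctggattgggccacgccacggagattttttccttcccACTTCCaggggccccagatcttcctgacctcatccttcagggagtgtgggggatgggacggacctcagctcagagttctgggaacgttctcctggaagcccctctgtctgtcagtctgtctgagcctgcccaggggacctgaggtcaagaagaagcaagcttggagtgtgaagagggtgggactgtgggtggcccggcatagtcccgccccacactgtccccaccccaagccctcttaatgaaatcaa

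The capitals stand at -156 to -151 from the start in Siglech, at -28 to -23 in P2ry12 and at -198 to -193 in Tmem119. Sall1 also held these letters, on either strand, and Gpr34 did not, so 4 of the 5 marker promoters held them, beside 24.1% of 21603 promoters of the same length. This motif was chosen after another spelling of the PU.1 site, GAGGAA, had been found in 1 of the 5 (27.6% of all promoters). GGAAGT was present in 3 of 20 promoters of the other homeostatic genes examined, in 3 of the 5 injury score genes and in 4 of 24 Trem2-linked genes, and GAGGAA in 9 of 20, 1 of 5 and 11 of 24. The letters describe these windows only.

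Each library held 97861434 to 142139441 UMIs, with the totals of all 4 ancrod libraries (126682918 or more) above those of the 4 saline libraries (122758649 or fewer), and 5080 to 6277 kept droplets. Homeostatic-like cells numbered 1273, 1318, 1182 and 1109 in control mice 1 to 4, and 966, 739, 1091 and 773 in ancrod mice 1 to 4. Their median depth was 9725, 13150.5, 13412.5 and 11347 UMIs in control mice and 15556.5, 13770, 12206 and 12719 UMIs in ancrod mice. All 5 markers were detected in 6081 of the cells (72.0%), 4 in 1660 (19.6%) and 3 in 710 (8.40%), where the rule required 3, and genes of homeostatic microglia that the rule did not use are described with the comparison of states. Pairs of libraries shared 3 to 15 barcodes of kept droplets. A doublet score marked 201 cells (2.38%), and RNA free in the suspension was estimated to make up 2.15% to 6.82% of the UMIs summed over the homeostatic-like cells of a mouse.

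The cut on the injury score stood at 1.53 cp10k, where the highest cell inside had 1.52641 and the lowest cell outside 1.52656 cp10k. Of the homeostatic-like cells, 5118 had a score of 0, and 1342 microglia lay within 0.25 cp10k of the cut. The class is therefore a range of a continuous score. Depth moved with it: over quintiles of all microglia ordered by UMIs, from lowest to highest, the homeostatic-like share was 59.9%, 63.4%, 53.4%, 29.0% and 7.52%, and the injury-responsive share 32.6%, 22.7%, 28.2%, 47.0% and 54.8%. For this reason counts over gene lists are given also within the middle quintile, which holds 2116 homeostatic-like and 1119 injury-responsive cells, with means of 15094 to 15711 and 15633 to 16081 UMIs per mouse, lower in the homeostatic-like cells of each mouse.

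Homeostatic-like microglia made up a smaller part of the kept droplets in fibrinogen-depleted mice than in control mice, with no overlap between the groups, but the difference did not pass adjustment for the 4 comparisons of this kind. Their share of kept droplets was 22.2%, 23.7%, 18.8% and 20.0% in control mice and 16.3%, 12.5%, 17.7% and 15.2% in ancrod mice. The means were 21.2% ± 2.18 and 15.4% ± 2.19 (SD, n = 4 each), a difference of -5.73 percentage points (two-sided exact permutation test, p = 0.0286, the smallest that 70 arrangements allow, adjusted p = 0.114). At this smallest p, 1 share alone could not pass adjustment over 4 comparisons. All 4 ancrod mice lay below all 4 control mice. With every droplet thinned to 2000 UMIs the difference was -4.84 points (exact permutation test, p = 0.0571), and ancrod mouse 3 (15.48%) then lay above control mouse 3 (14.96%), so that the groups overlapped. With droplets thinned to 5000 UMIs, which left out the 709 to 1387 shallower droplets of each library and was chosen after seeing the data, it was -5.09 points (exact permutation test, p = 0.0286). With the injury score, division and interferon genes alone read at 2000 UMIs, also chosen after seeing the data, it was -5.18 points (exact permutation test, p = 0.0571), with overlap. Within batch 1 it was -6.06 points (exact permutation test, p = 0.1, the smallest that 3 against 3 allows) and in the 1 pair of batch 2 -4.75 points. Fewer homeostatic-like cells, more cells of other types and a different recovery of cells cannot be told apart in such a share. The paper reports that reactive fibroblasts and macrophages tended towards higher proportions in fibrinogen-depleted mice. It names easier dissociation of a less fibrotic lesion as the likely reason, which was not tested here.

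Of all microglia, the homeostatic-like cells were 52.6%, 50.5%, 40.2% and 41.9% in control mice and 35.5%, 36.1%, 43.3% and 40.1% in ancrod mice. The groups overlapped, since ancrod mouse 3 lay above control mice 3 and 4. The means of 46.3% ± 6.15 and 38.8% ± 3.65 (SD, n = 4 each) differed by -7.55 points (exact permutation test, p = 0.114, adjusted p = 0.152), by -9.45 points in batch 1 (exact permutation test, p = 0.2) and by -1.87 points in batch 2. At matched depth this difference was -6.35 points with droplets thinned to 5000 UMIs and shallower ones left out (exact permutation test, p = 0.0857), -4.42 points with every droplet at 2000 UMIs (exact permutation test, p = 0.171) and -3.68 points with the injury score, division and interferon genes alone read after thinning (exact permutation test, p = 0.229), the first and the last being chosen after seeing the data. After thinning the median score of all microglia, and with it the cut, was 0, so that the class was a larger part of microglia. With every droplet at 2000 UMIs it was 75.1% of microglia in control mice and 70.7% in ancrod mice. Fewer droplets then counted as microglia, 24.0% of kept droplets in control mice and 18.7% in ancrod mice. Microglia of all states were 45.9% ± 2.52 of kept droplets in control mice and 39.8% ± 4.81 in ancrod mice (SD, n = 4 each), a difference of -6.03 points (exact permutation test, p = 0.0571, adjusted p = 0.114). The median injury score of all microglia was 1.39 ± 0.586 cp10k in control mice and 1.76 ± 0.199 cp10k in ancrod mice (SD, n = 4 each; exact permutation test, p = 0.286, adjusted p = 0.286).

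**Figure D1:**
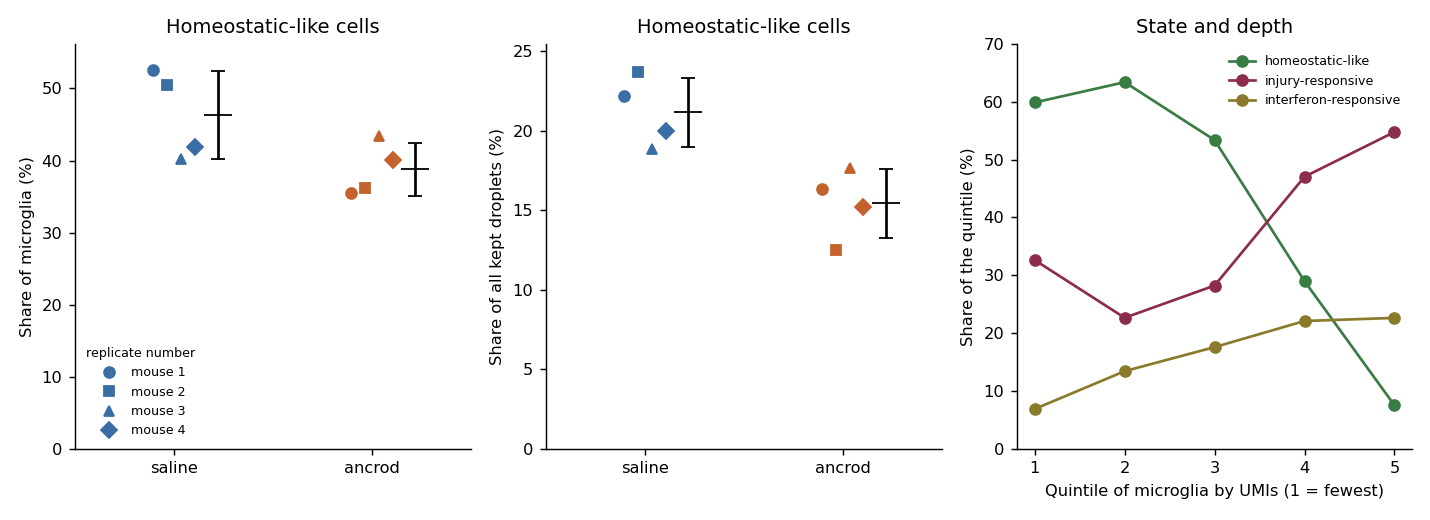
Left and middle, homeostatic-like microglia as a percentage of all microglia and of all kept droplets, with 1 point per mouse and bars for mean and SD of 4 control (saline) and 4 ancrod mice; right, the percentage of microglia in each state over quintiles of UMI depth. The ancrod mice lie below all control mice in the share of kept droplets, the groups overlap in the share of microglia, and the homeostatic-like share drops to 7.52% in the deepest quintile.

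Homeostatic-like cells were next set beside the injury-responsive microglia of the same mice, a contrast that the rule itself made and that is described without a test. UMIs were summed per mouse and state and given as counts per 1000000 UMIs (CPM) on TMM library sizes of the 16 sums, and ratios are log2 of CPM + 1, homeostatic-like minus injury-responsive, as the median of 8 mice. Of 11885 genes, 25.8% were higher and 28.8% lower in the homeostatic-like cells of all 8 mice, and 8.95% and 9.92% within the middle depth quintile. The counts over gene lists below stand beside these shares. On plain library totals the median of all genes shifted from 0.01 to 0.16, with 37.8% higher and 18.8% lower.

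The marker and score genes, which chose the cells, differed in the direction the rule set. Siglech was at 591, 568, 508 and 526 CPM in the homeostatic-like cells of control mice and 455, 484, 567 and 540 CPM in those of ancrod mice, and at 192 to 262 CPM in the injury-responsive cells of the 8 mice. P2ry12 was at 891, 882, 766 and 853 CPM in control mice and 694, 709, 893 and 981 CPM in ancrod mice, against 374 to 486 CPM in injury-responsive cells. Neither gene overlapped between the states, with log2 ratios of 1.20 for Siglech (0.68 in the middle depth quintile) and 0.93 for P2ry12 (0.66). Tmem119 had a log2 ratio of 0.73 (0.43 in the middle depth quintile; 353 ± 41.1 against 218 ± 23.8 CPM, SD, n = 8 mice), and Sall1 of 0.57 (0.32; 165 ± 15.7 against 110 ± 10.4 CPM). Gpr34 differed least of the markers, at 717 ± 103 against 595 ± 57.4 CPM, a log2 ratio of 0.26 that was 0.10 in the middle depth quintile and positive there in 7 of 8 mice. The score genes had log2 ratios of -4.98 for Lpl (lipoprotein lipase), -3.22 for Cst7 (cystatin F), -1.69 for Itgax (CD11c), -6.71 for Gpnmb (a lysosomal glycoprotein) and -6.58 for the growth factor Igf1, and in the middle depth quintile their ratios had a median of -4.09 and were negative in all 8 mice.

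**Figure D2:**
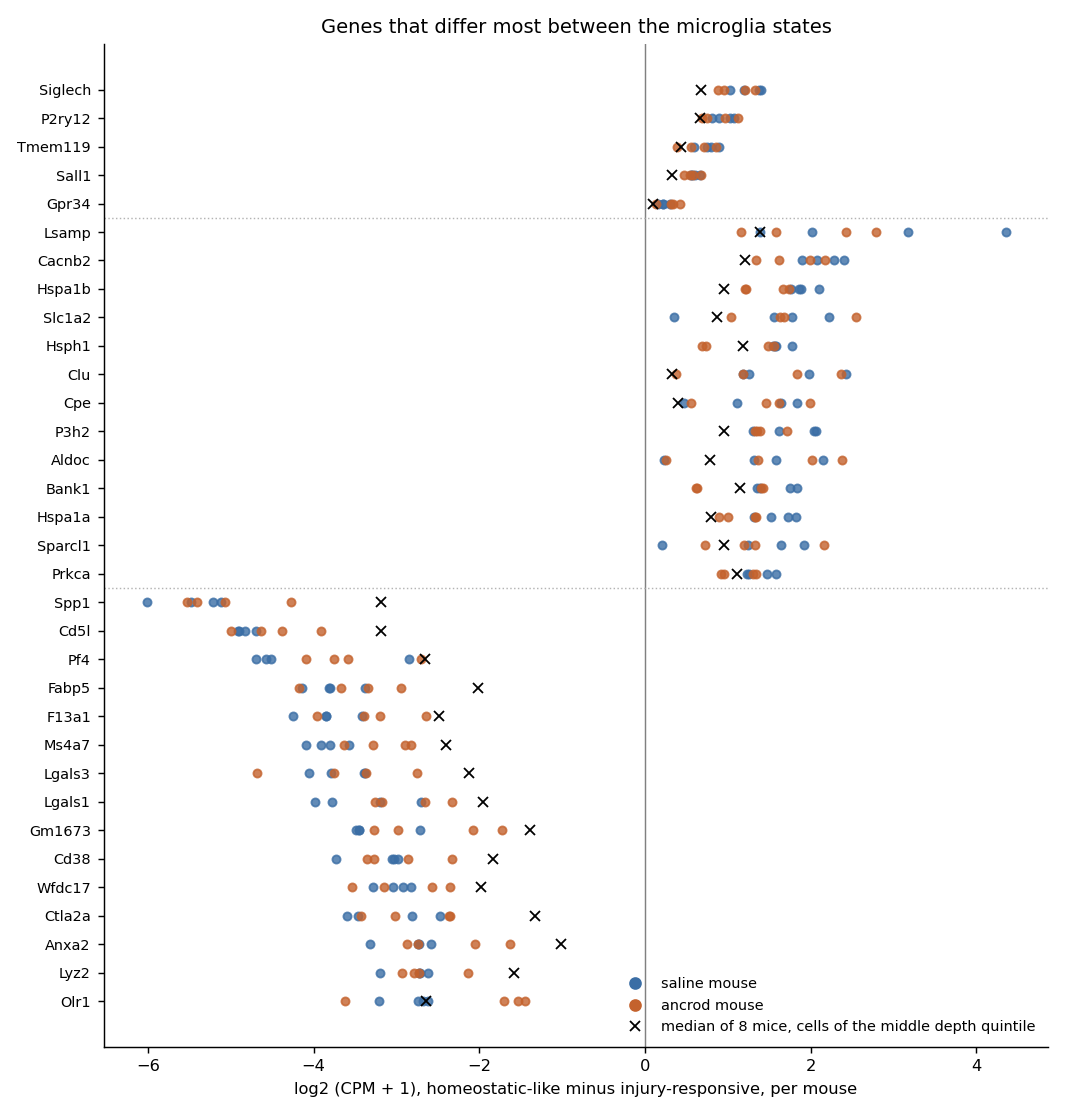
Log2 of CPM + 1 in homeostatic-like minus injury-responsive microglia, with 1 point per mouse (8 mice) for the 5 markers and, of the genes of largest ratio, 13 higher and 15 lower in homeostatic-like cells, and a cross for the median within the middle depth quintile. Crosses lie nearer to 0 than the points for most genes, and for 6 of the 13 higher genes fewer than 8 of 8 mice stayed above 0 in that quintile.

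Of the 15 genes highest in homeostatic-like cells outside the rule, 7 kept their direction in 8 of 8 mice within the middle depth quintile. These were Cacnb2, P3h2, Prkca, Bank1 and the heat shock genes Hspa1b, Hsph1 and Hspa1a. Cacnb2, a regulatory subunit of voltage-gated calcium channels, was at 334, 297, 246 and 267 CPM in the homeostatic-like cells of control mice and 182, 190, 273 and 223 CPM in those of ancrod mice, and at 49.9 to 78.4 CPM in injury-responsive cells, a log2 ratio of 2.03. P3h2, a collagen prolyl 3-hydroxylase, was at 389, 323, 286 and 230 CPM in control mice and 184, 219, 241 and 171 CPM in ancrod mice, with 67.5 to 126 CPM in injury-responsive cells (1.50). The states did not overlap for these genes, and droplets other than microglia had only 48.5 CPM of Cacnb2 and 15.8 CPM of P3h2. Prkca, protein kinase C alpha, had a log2 ratio of 1.28 (152 ± 21.8 against 62.8 ± 4.99 CPM), and Bank1, an adaptor protein known from B cell signalling, of 1.39 (51.1 ± 13.1 against 19.7 ± 2.87 CPM).

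The heat shock genes varied widely among mice. Hspa1b, an inducible HSP70 chaperone, was at 651, 502, 425 and 523 CPM in control mice and 428, 211, 530 and 132 CPM in ancrod mice, against 56.0 to 175 CPM in injury-responsive cells (log2 ratio 1.75). Hspa1a is nearly identical in sequence, so that the split of reads between the pair is uncertain, and it had a ratio of 1.33. These genes are also known to respond to dissociation of tissue, and 12 of 28 genes of the immediate early and dissociation list, which holds Hspa1a and Hspa1b, were higher in all 8 mice and 1 lower (Fosb; 7 and 2 in the middle depth quintile), with a median log2 ratio of 0.19, and Jun at 0.65, Btg2 at 0.65, Egr1 at 0.51, Ier5 at 0.50 and Cd83 at 0.38. Their part in the difference between states was not tested.

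Others of the 15 highest genes were Lsamp, Slc1a2, Clu, Cpe, Aldoc and Sparcl1, with log2 ratios of 1.29 to 2.22. Slc1a2 encodes the main glutamate transporter of astrocytes, and Aldoc is an astrocyte gene too. These 6 were at 448 to 1587 CPM in droplets other than microglia, above their level of 64.4 to 239 CPM in homeostatic-like cells. Interferon-responsive microglia also had more of each of the 6, from 95.2 CPM of Lsamp to 358 CPM of Slc1a2 on plain library totals. Dividing microglia had less of each, from 26.3 CPM of Aldoc to 182 CPM of Slc1a2. In the middle depth quintile the 6 were higher in homeostatic-like than in injury-responsive cells in 5 or 6 of 8 mice. Of 6 astrocyte markers, 4 were higher in the homeostatic-like cells of all 8 mice (1 in the middle depth quintile). With free RNA subtracted the ratios of the 6 genes were 2.29 to 3.40, positive in 8 of 8 mice for Lsamp and in 7 of 8 for the others, and 1 of the 6 markers was higher in all 8 mice.

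Among genes lower in homeostatic-like cells outside the rule, Spp1 (osteopontin) had the largest difference, at 196, 206, 259 and 141 CPM in control mice and 236, 105, 388 and 223 CPM in ancrod mice. In injury-responsive cells it was at 4575 to 13060 CPM, a log2 ratio of -5.31. Next in order came Cd5l (a secreted scavenger receptor protein of macrophages, -4.76), Pf4 (a chemokine, -3.92), Fabp5 (a fatty acid binding protein, -3.74), F13a1 (coagulation factor XIII, -3.64), Ms4a7 (-3.60), the galectins Lgals3 (-3.57) and Lgals1 (-3.19), Gm1673 (-3.13), Cd38 (-3.04), Wfdc17 (-2.99), Ctla2a (-2.91), Anxa2 (-2.73), Lyz2 (lysozyme, -2.73) and Olr1 (a receptor of oxidised lipoprotein, -2.65). All 15 were lower in 8 of 8 mice, and within the middle depth quintile 13 were lower in 8 of 8, with F13a1 and Olr1 lower in 7. Free RNA held a higher level of each of the 15 genes than homeostatic-like cells did, from 11.6 CPM of Olr1 to 4752 CPM of Lyz2 and 12711 CPM of Spp1, so that levels in these cells include an unknown part of free RNA. With free RNA subtracted Spp1 and Ctla2a were at 0 in the homeostatic-like cells of most mice, where a ratio is set by the added 1 CPM, and all 15 genes were lower in 8 of 8 mice. Of the markers of border-associated macrophages, a class found along vessels and meninges, which include Pf4 and F13a1, 6 of 6 were lower in homeostatic-like cells in all 8 mice (2 in the middle depth quintile).

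Genes known from homeostatic microglia that the rule did not use were higher in 12 of 20 cases in all 8 mice (10 in the middle depth quintile) and lower in 4 (1), with a median log2 ratio of 0.27. The largest ratios were those of Slc2a5, a fructose transporter (1.22), and Selplg, the ligand of P-selectin (1.03). Selplg was at 615, 600, 445 and 513 CPM in the homeostatic-like cells of control mice and 394, 433, 485 and 547 CPM in those of ancrod mice, above the 218 to 292 CPM of injury-responsive cells in every mouse. Adgrg1 (0.86), Crybb1 (0.68), Tgfbr1 (0.63), Lag3 (0.56), P2ry13 (0.48), Mertk (0.40), Csf1r (0.28), Cx3cr1 (0.27) and Golm1 (0.10) were higher in 8 of 8 mice as well. Cx3cr1, the fractalkine receptor, was at 1619 ± 77.3 against 1352 ± 71.1 CPM, and Csf1r at 1358 ± 49.6 against 1136 ± 57.5 CPM (SD, n = 8 mice), and in the middle depth quintile each was higher in 7 of 8. Those lower in all 8 mice included Fcrls (-0.65), Serpine2 (-0.40) and Rnase4 (-0.35). Not every gene named for homeostasis was thus highest in the cells with a low injury score.

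The factors and signals that maintain microglial identity were in part higher too. Of 14 transcription factors, 7 were higher in all 8 mice and 0 lower (5 and 0 in the middle depth quintile), with a median log2 ratio of 0.28. Mef2a was at 1463 against 927 CPM (0.65), followed by Smad3 (0.47), Fli1 (0.43), Mef2c (0.40), Sall3 (0.40), Irf5 (0.36) and Runx1 (0.35), whereas Spi1 (-0.06) and Irf8 (-0.12) went both ways among mice. In the TGF-beta pathway 10 of 15 genes were higher and 1 lower (8 and 0 in the middle depth quintile), with a median of 0.35. The receptor Tgfbr1 was at 1106 against 717 CPM, the coreceptor Eng had a ratio of 0.76, the signal transducer Smad4 of 0.74, the inhibitor Smad7 of 0.69 and the ligand Tgfb1 of 0.35. Itgav, a subunit of the integrins that release active TGF-beta, was the gene that was lower (-0.65).

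All 24 Trem2-linked genes outside the rule were lower in homeostatic-like cells in all 8 mice (22 in the middle depth quintile), with a median log2 ratio of -1.08. Apoe, a carrier of lipids, was at 8499, 11316, 15546 and 17441 CPM in the homeostatic-like cells of control mice and 20541, 16519, 16094 and 11337 CPM in those of ancrod mice. In injury-responsive cells it was at 32080 to 40048 CPM, so the states did not overlap (-1.25). The cathepsins Ctsb (-1.44) and Ctsd (-1.31), the tetraspanin Cd63 (-1.36), the lectin Clec7a (-1.19), the signalling adaptor Tyrobp (-0.89) and Trem2 itself (-0.51) were lower too. Of 22 genes of the lysosome and phagocytosis, 19 were lower and 2 higher (15 and 1 in the middle depth quintile), with a median of -0.67.

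Glycolytic enzymes followed the same direction, with 13 of 18 genes of the glycolysis and hypoxia list lower in all 8 mice (11 in the middle depth quintile), 3 higher (0) and a median of -0.85. Gapdh was at 309, 353, 371 and 342 CPM in control mice and 511, 408, 421 and 409 CPM in ancrod mice, and at 696 to 969 CPM in injury-responsive cells (-1.27). Pkm (-1.48), Pgk1 (-1.34) and Aldoa (-1.19) were lower as well, while Pdk1 (0.35), Hk2 (0.28) and Pfkfb3 (0.15) were higher.

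Inflammatory genes were not uniformly low in homeostatic-like cells. Of 21 cytokine and chemokine genes 9 were lower and 4 higher in all 8 mice, and 4 and 1 in the middle depth quintile. Over all genes, beside which the lists here stand, 28.8% were lower and 25.8% higher. In the middle depth quintile these shares were 9.92% and 8.95%. Il1b, the precursor of interleukin 1 beta, was at 299 against 588 CPM (-1.13), Cxcl2 had a ratio of -1.07 and Ccl2 of -0.97, whereas Ccl12 was higher (0.35). Ccl4 (4227 against 4488 CPM), Ccl3 (1761 against 2035 CPM) and Tnf (586 against 663 CPM) were not in 1 direction in all mice. Of 16 genes of CD11b/CD18 and the NADPH oxidase 9 were lower and 3 higher (6 and 0 in the middle depth quintile), with Cybb, the catalytic subunit of the oxidase, at -2.25, Itgb2 at -0.44 and Itgam at -0.02. Of 12 complement genes 7 were lower (6 in the middle depth quintile), with C1qa at 5490 against 8114 CPM (-0.56). In the other lists, the counts of genes higher and lower in all 8 mice, with those in the middle depth quintile in brackets, were 4 and 4 (2 and 3) of 11 for purine sensing, 3 and 6 (2 and 3) of 11 for CSF1 receptor signalling, 3 and 10 (3 and 7) of 18 for cholesterol and lipids, 2 and 7 (1 and 6) of 12 for MHC class I, 1 and 0 (0 and 0) of 9 for MHC class II and 1 and 6 (0 and 7) of 20 for interferon response genes.

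Within the homeostatic-like range levels of these genes differed by degrees along the score. The cells were parted into those with a score of 0 (5118), and those below (1667) and above (1666) the median of the positive scores, and set beside the lower (3675) and upper (3672) part of the injury-responsive cells. Apoe was at 12562 ± 3873, 16836 ± 2966 and 20003 ± 3570 CPM in the 3 homeostatic-like bins and at 26356 ± 2218 and 39304 ± 4308 CPM in the injury bins (SD, n = 8 mice). P2ry12 was at 992, 779, 760, 596 and 289 CPM over the same bins, and Siglech at 627, 499, 491, 361 and 125 CPM. Spp1 stayed between 196 and 313 CPM in the homeostatic-like bins and was at 573 and 12973 CPM in the injury bins, while Fabp5 went from 45.7 to 61.4 and then to 129 and 951 CPM. Spp1 and Fabp5 were thus concentrated in the cells of highest score, while Apoe, Ctsd and Gapdh had intermediate levels already inside the homeostatic-like range, with Gapdh at 365, 441 and 474 CPM. Ccl4 (3832 to 4827 CPM) varied little over the 5 bins. Depth moved with the bins as well, since the cells with a score of 0 had a median of 8714 UMIs in control mouse 1 and 13551 in ancrod mouse 1, and those of the next bin 14108 and 17242.

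**Figure D3:**
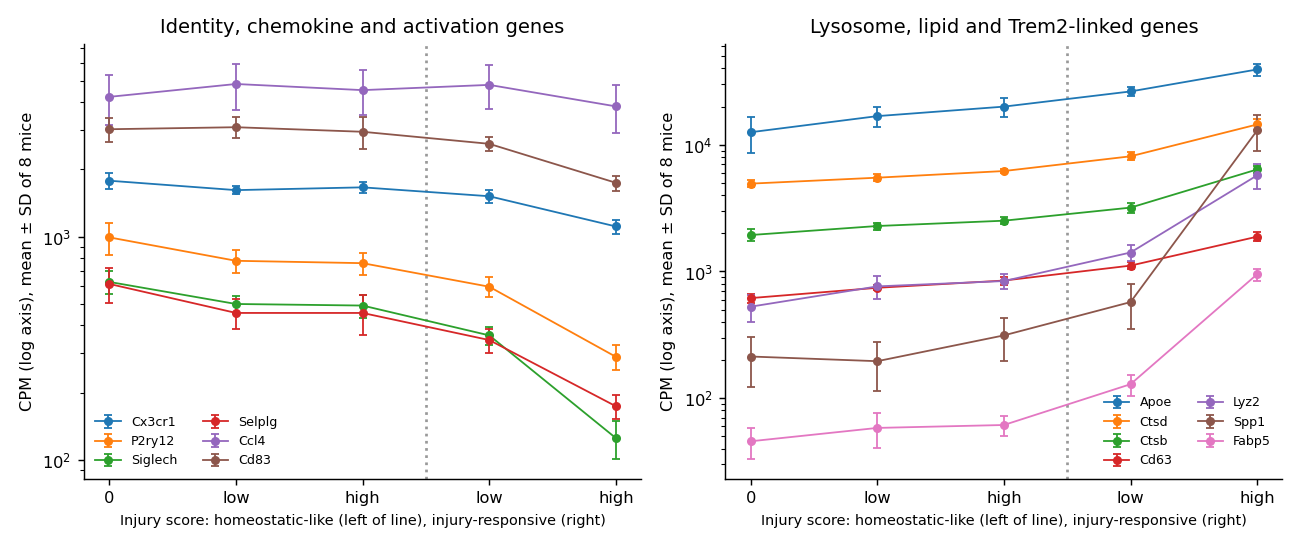
CPM (log axis) over 5 bins of the injury score, from homeostatic-like cells with a score of 0 to the upper part of the injury-responsive cells, as mean and SD of 8 mice. P2ry12, Siglech and Selplg are lower in the last bin than in the first, Apoe and Ctsd are higher already in the later homeostatic-like bins, and Spp1 mainly in the last bin (12973 CPM).

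The effect of fibrinogen depletion on gene expression within homeostatic-like microglia was then tested over the 8 mice with edgeR, on sums scaled among themselves, so that CPM values here differ slightly from those above. No gene passed the threshold: 0 of 12361 genes (0%) had an adjusted p below 0.05 with edgeR's quasi-likelihood test, and the lowest adjusted p was 0.0957 for the smooth muscle gene Tagln. At an unadjusted edgeR p below 0.05 there were 1475 genes, 848 higher (6.86%) and 627 lower (5.07%) in ancrod mice, and DESeq2 called 72 (0.582%), 35 higher and 37 lower, where 6953 genes were given no adjusted p. The groups did not overlap for 480 genes that were higher (3.88%) and 381 that were lower (3.08%).

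The genes of lowest p in each direction with a mean of at least 10 CPM and no place in the rule are given as not past the threshold. All had an edgeR adjusted p of 0.36, and the groups did not overlap in any of them. Those higher in ancrod mice were led by Atp5g1, a subunit of the mitochondrial ATP synthase, at 70.9, 78.5, 76.0 and 77.9 CPM in control mice and 103, 96.9, 91.3 and 94.9 CPM in ancrod mice (log2 fold change 0.35 ± 0.06 SE). Ndufa4, a subunit of the respiratory chain, was at 123, 131, 130 and 138 CPM in control mice and 185, 157, 169 and 166 CPM in ancrod mice (0.38 ± 0.07). Prdx1, a peroxiredoxin that removes peroxides, was at 180, 205, 203 and 199 CPM in control mice and 263, 258, 231 and 244 CPM in ancrod mice (0.34 ± 0.07). DESeq2 gave an adjusted p of 0.00412 for Atp5g1 and Ndufa4 and of 0.0071 for Prdx1, so for these genes the call depended on the tool. The other 7 were Phgdh (serine synthesis, 0.36), Etfb (electron transfer flavoprotein, 0.36), 1810037I17Rik (0.35), Ranbp1 (nuclear transport, 0.34), Gtf2h5 (a subunit of TFIIH, 0.34), Scp2 (sterol carrier protein, 0.34) and Mrps14 (mitochondrial ribosome, 0.34).

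Genes lower in ancrod mice included Supt3, a subunit of the SAGA coactivator, at 103, 94.8, 99.2 and 98.7 CPM in control mice and 70.7, 78.4, 82.8 and 78.6 CPM in ancrod mice (-0.35 ± 0.07, DESeq2 adjusted p = 0.00412). Agmo, which cleaves ether lipids, was at 388, 351, 316 and 289 CPM in control mice and 254, 243, 270 and 249 CPM in ancrod mice (-0.40 ± 0.10, DESeq2 adjusted p = 0.0226). Per3, a gene of the circadian clock, was at 16.3, 17.2, 19.4 and 22.2 CPM in control mice and 11.5, 14.0, 13.5 and 12.99 CPM in ancrod mice (-0.53 ± 0.12). Every control mouse lay above every ancrod mouse in each of these genes. The others were Cfap45 (-0.72), Gstt2 (a glutathione transferase, -0.67), Atg4a (-0.39) and Tmem41b (-0.32), both of autophagy, Tesk2 (-0.36), Eml6 (-0.36) and Armh3 (-0.34).

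**Figure D4:**
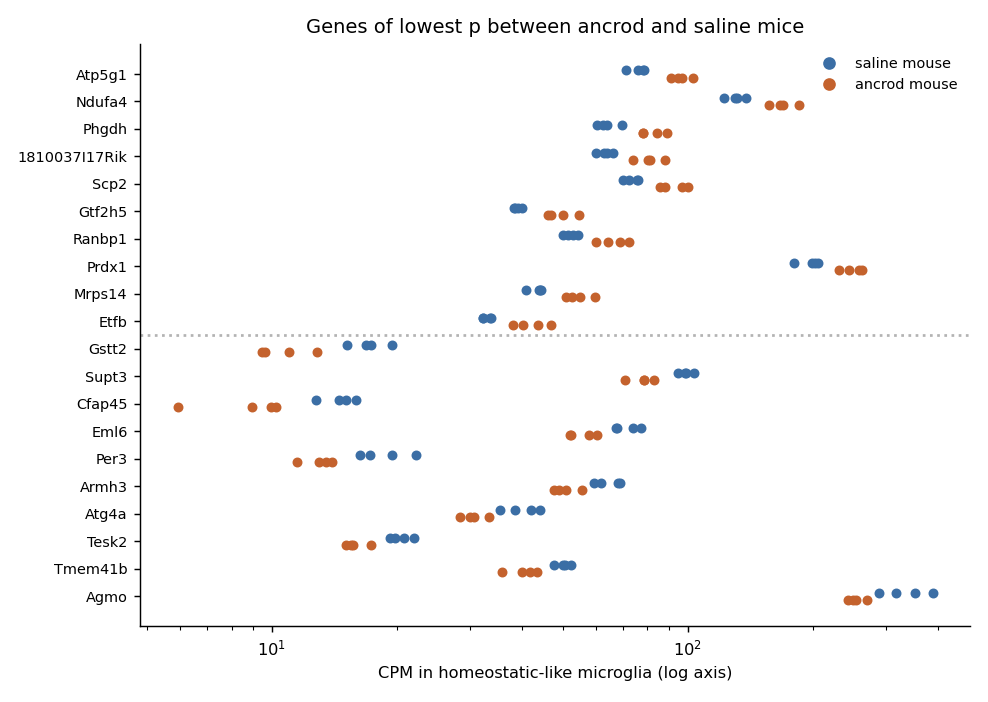
CPM (log axis) of the 20 named genes in homeostatic-like microglia, with 1 point per mouse for 4 control (saline) and 4 ancrod mice. The groups do not overlap in any of the 20 genes, which were named for the lowest p in each direction, and no gene passed the adjusted threshold of edgeR.

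The 5 markers had to be detected for a cell to be counted, which constrained their levels in both groups, so their values are a description without a test. P2ry12 had a log2 fold change of -0.05 ± 0.12 (SE), Siglech of -0.10 ± 0.09, Tmem119 of -0.18 ± 0.10, Sall1 of -0.04 ± 0.10 and Gpr34 of 0.03 ± 0.14. Of the 20 other homeostatic genes 8 were higher and 12 lower, with a median of -0.02 (7 to 13 higher and medians of -0.041 to 0.023 with any 1 mouse left out). The TAM receptor Mertk, which takes up apoptotic cells, was the member with the lowest p, at 1127, 921, 909 and 1101 CPM in control mice and 887, 872, 880 and 790 CPM in ancrod mice (-0.24 ± 0.10, edgeR adjusted p = 0.392), without overlap.

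In the TGF-beta pathway 6 genes were higher and 9 lower (median -0.10). The decoy receptor Bambi was at 5.74, 5.38, 6.23 and 7.05 CPM in control mice and 8.39, 8.24, 8.44 and 8.73 CPM in ancrod mice (0.47 ± 0.12, edgeR adjusted p = 0.36), and Itgav had a fold change of -0.23 ± 0.09 (edgeR adjusted p = 0.382). Of the microglial transcription factors 5 were higher and 9 lower (median -0.09), with Mef2a at -0.19 ± 0.09 (edgeR adjusted p = 0.431). Among 11 genes of purine sensing and motility, P2rx7, an ATP-gated channel, was at 168, 160, 151 and 158 CPM in control mice and 124, 111, 153 and 91.2 CPM in ancrod mice (-0.41 ± 0.14, edgeR adjusted p = 0.36). Ancrod mouse 3 overlapped the control mice in P2rx7. Aif1, which encodes the microglia protein Iba1, had a fold change of 0.26 ± 0.10 (edgeR adjusted p = 0.382).

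Trem2-linked genes outside the rule were higher in ancrod mice in 22 of 24 cases, with a median log2 fold change of 0.20 beside 0.01 over all genes tested, and 4 higher with an unadjusted edgeR p below 0.05 (6.86% of all genes). Lyz2 was at 470, 516, 666 and 590 CPM in control mice and 861, 866, 703 and 660 CPM in ancrod mice (0.46 ± 0.14, edgeR adjusted p = 0.36; 0.79 with free RNA subtracted). Cd63 was at 590, 670, 661 and 689 CPM in control mice and 850, 737, 729 and 726 CPM in ancrod mice (0.22 ± 0.09, edgeR adjusted p = 0.384). In Cd63 the groups did not overlap, and in Lyz2 ancrod mouse 4 lay just below control mouse 3. The Trem2-linked list kept 20 to 22 of 24 genes higher with any 1 mouse left out, with medians of 0.11 (without control mouse 1) to 0.21, but in all microglia together 14 of 24 were higher, with a median of 0.04. Cells with a score of 0 were 73.4%, 65.2%, 58.4% and 61.0% of homeostatic-like cells in control mice and 47.3%, 56.0%, 59.3% and 56.9% in ancrod mice, with overlap and without a test, and this share moved with depth (9725 UMIs in control mouse 1 and 15556.5 in ancrod mouse 1). With the cut at the pooled lower quartile, which left only cells with a score of 0, 23 of 24 genes were higher, with a median of 0.19. Markers of monocytes and infiltrating macrophages were 5 higher and 1 lower of the 6 tested, with sums of 35.0 to 66.0 CPM in control mice and 55.4 to 106 CPM in ancrod mice and Ms4a7 at 1.09 ± 0.30 (edgeR adjusted p = 0.36), and their part in these values was not tested.

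Glycolysis and hypoxia genes were higher in 14 of 18 cases (median 0.15), 6 of them at an unadjusted edgeR p below 0.05, against 6.86% of all genes. Pgk1 was at 50.7, 52.9, 58.4 and 51.0 CPM in control mice and 85.6, 73.5, 69.2 and 60.8 CPM in ancrod mice (0.44 ± 0.10, edgeR adjusted p = 0.36). Gapdh was at 332, 372, 393 and 359 CPM in control mice and 543, 434, 445 and 428 CPM in ancrod mice (0.35 ± 0.10, edgeR adjusted p = 0.36). The groups did not overlap for Pgk1, Gapdh or Pkm (0.39 ± 0.10), which were called by DESeq2 with adjusted p of 0.0354, 0.0469 and 0.0394. Ancrod mouse 1 was highest in each of the 3, and without it 11 of 18 genes were higher, with a median of 0.08.

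Of the receptor of fibrin and its pathway, the list of CD11b/CD18 and the NADPH oxidase had 11 genes higher and 5 lower (median 0.10, which was 0.021 without control mouse 1 and 0.048 without ancrod mouse 1), none at an unadjusted edgeR p below 0.05. Itgam was at 376, 456, 496 and 387 CPM in control mice and 623, 536, 513 and 420 CPM in ancrod mice (0.29 ± 0.13, edgeR adjusted p = 0.442), Itgb2 had a fold change of 0.11 ± 0.09, and Cybb of 0.62 ± 0.32 (edgeR adjusted p = 0.479). Complement genes were higher in 10 of 12 cases (median 0.13), and the median was 0.031 without control mouse 1 and 0.049 without ancrod mouse 1. Cytokines were higher in 15 of 21 cases (0.10), but without control mouse 1 in 9 (-0.034), and their median was 0.022 without ancrod mouse 4 and 0.053 without control mouse 4. Il1b varied widely among mice, at 135, 289, 349 and 219 CPM in control mice and 559, 324, 207 and 447 CPM in ancrod mice (0.63 ± 0.34, edgeR adjusted p = 0.498), with overlap. Lysosome genes were higher in 15 of 22 cases (median 0.09), cholesterol and lipid genes in 14 of 18 (0.12), CSF1 receptor signalling genes in 6 of 12 (0.04) and immediate early genes in 13 of 28 (-0.02). With any 1 mouse left out these medians ran from 0.043 to 0.124, from 0.063 to 0.183, from -0.010 to 0.126 and from -0.096 to 0.062. The count of immediate early genes higher in ancrod mice was 4 without control mouse 1 or without ancrod mouse 4 and 20 without ancrod mouse 2, so that its direction changed with the mouse left out.

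The direction of the antigen presentation genes rested on 1 library. MHC class II genes were lower in ancrod mice in 9 of 9 cases (median -0.15) and MHC class I genes in 9 of 12 (-0.07). Cd74, the invariant chain of MHC class II, was at 172, 96.5, 84.2 and 446 CPM in control mice and 143, 154, 76.0 and 74.8 CPM in ancrod mice (-0.83 ± 0.52, edgeR adjusted p = 0.553), with control mouse 4 far above the rest. Without that mouse 6 of 9 class II genes were higher (median 0.04), and 11 of 12 class I genes (0.25). Interferon response genes outside the rule were higher in 15 of 20 cases (median 0.25) with all mice, in 20 of 20 without control mouse 4 (0.41) and in 20 of 20 in batch 1 alone (0.53). With any other mouse left out 14 to 17 of the 20 were higher, with medians from 0.083 (without control mouse 2) to 0.308 (without ancrod mouse 4). Control mouse 4 and ancrod mouse 4 are the only mice of batch 2.

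**Figure D5:**
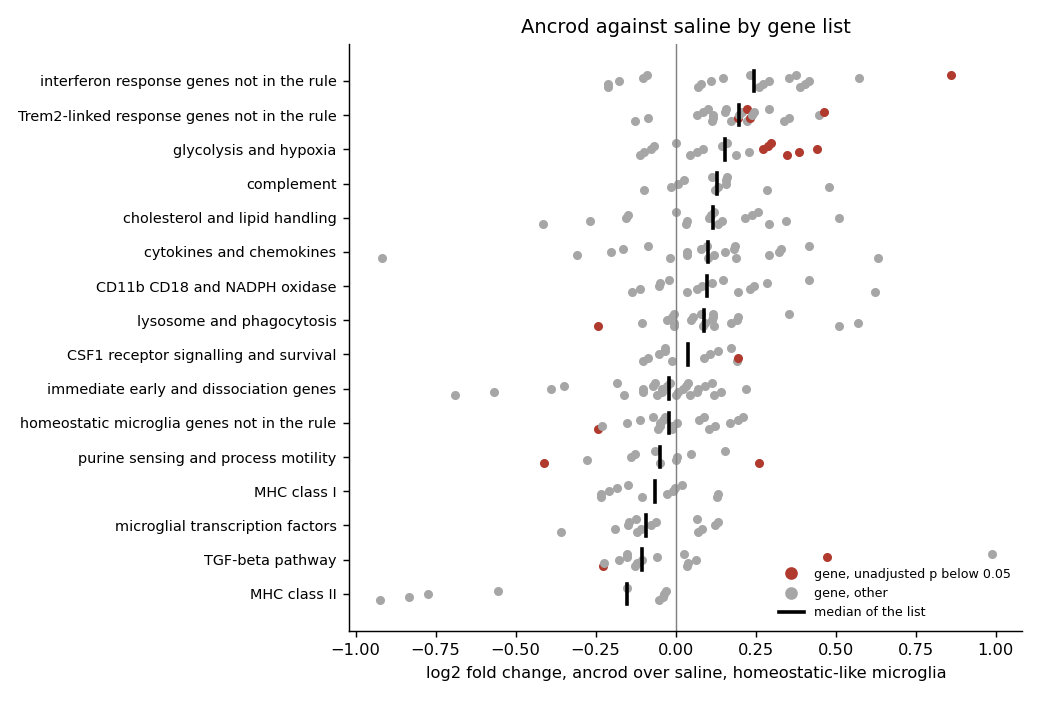
Log2 fold change (ancrod against saline) of each gene of 16 lists in homeostatic-like microglia, with red points for an unadjusted edgeR p below 0.05 and a bar for the median of the list. Trem2-linked and glycolysis genes lie mostly above 0, MHC class II genes all below 0, and the homeostatic genes around 0.

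Beyond these lists, some families were looked at after the values had been seen, as a description. Of 93 nuclear genes of the respiratory chain and ATP synthase 87 were higher in ancrod mice (median log2 fold change 0.24, 47 higher at an unadjusted edgeR p below 0.05, beside 6.86% of all genes), of 13 genes of the mitochondrial genome 13 (0.27), of 81 cytosolic ribosomal protein genes 81 (0.31) and of 39 proteasome genes 35 (0.19). In injury-responsive cells of the same mice the medians were 0.01, 0.05, 0.10 and -0.01. Ribosomal protein genes summed to 90120, 107700, 115500 and 105800 CPM in control mice and 158100, 123200, 119600 and 112900 CPM in ancrod mice, so that ancrod mouse 1 was highest and ancrod mouse 4 lay below control mouse 3. Without ancrod mouse 1 the median of the ribosomal genes was 0.19 and that of the respiratory chain 0.16, and within the middle depth quintile the 4 medians were 0.28 for the respiratory chain, 0.29 for the mitochondrial genome, 0.30 for ribosomal proteins and 0.20 for the proteasome. In all microglia together they were smaller, at 0.082, 0.143, 0.190 and 0.084. These are mostly short genes. Genes at an unadjusted edgeR p below 0.05 had a median genomic span of 11.8 kb when higher and 66.7 kb when lower, beside 28.3 kb over all genes tested, and the median log2 fold change over quintiles of span went from 0.11 for the shortest through 0.05, 0.01 and -0.03 to -0.08 for the longest. The part of gene span or RNA quality in these families was not tested.

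Whether ancrod acted differently on homeostatic-like and injury-responsive microglia was asked with the interaction of state and treatment over the 16 sums, with the mouse as a block. No gene of 12945 passed (0%, edgeR), 1505 had an unadjusted edgeR p below 0.05 (1024 with a more positive effect in homeostatic-like cells and 481 with a more negative one), and the lowest adjusted p was 0.0731 for Ntn4, a laminin-related protein. DESeq2 called 76 (0.587%), 65 of them more positive and 11 more negative, where 10792 genes were given no adjusted p. The 5 genes of lowest p, with the log2 fold change by ancrod in homeostatic-like minus that in injury-responsive cells, were Ntn4 (-4.55), Stk32a (-4.17), Myh11 (-6.51), Tagln (-5.50) and Gzma (-4.61), all at low counts. Ancrod mouse 2 was the highest ancrod mouse in injury-responsive cells for Ntn4 (4.24 CPM against 0.85 or less), Stk32a (2.36 against 0.098 or less), Myh11 (11.6 against 2.501 or less) and Tagln (27.3 against 11.6 or less). Gzma was at 7.67 CPM in homeostatic-like cells of control mouse 4 and at 0.467 CPM or less in those of the other mice.

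Tagln, Myh11 and Acta2, contractile genes of vascular smooth muscle, were low in homeostatic-like cells and had lower values in ancrod mice, not past the threshold, with Acta2 chosen after its values had been seen. Acta2 was at 8.10, 6.89, 14.8 and 9.36 CPM in control mice and 0.50, 0.60, 1.60 and 3.47 CPM in ancrod mice (-2.72 ± 0.46, edgeR adjusted p = 0.36). The 3 genes summed to 19.4 to 28.5 CPM in control mice and 1.18 to 5.55 CPM in ancrod mice. In droplets other than microglia they summed to 210 to 306 CPM in control mice and 287 to 645 CPM in ancrod mice, and in free RNA to 62.9 to 118 and 90.5 to 364 CPM. The groups overlapped in both of these, and ancrod mouse 4 was the highest in each, while in homeostatic-like cells all 4 ancrod mice lay below all 4 control mice. In all microglia together Acta2 and Myh11 had log2 fold changes of 0.14 and 0.09, so their direction turned with the set of cells. Injury-responsive cells of ancrod mouse 2 stood apart there, with 39.8 CPM of Acta2 against 1.92 to 7.20 CPM in those of the other ancrod mice. Sums of other foreign markers stood beside these: endothelial markers summed to 19.0 to 31.6 CPM in control mice and 11.4 to 19.5 in ancrod mice, fibroblast markers to 11.6 to 28.7 and 10.6 to 77.4, and neuronal markers to 167 CPM in ancrod mouse 4 against 9.24 to 31.6 in the others.

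At the level of cells, the share with at least 1 UMI was compared for 9 genes of reactive states after each cell was thinned to 2000 UMIs, beside endothelial droplets (Cldn5 and Flt1 together at least 10 cp10k), which should lack the immune genes. None of the 9 differed past the adjusted threshold. With 4 mice in each group the exact permutation test could give no p below 0.0286, so 1 gene alone could not pass adjustment over 9. Ccl3, a chemokine, was found in 63.3% ± 6.87 of homeostatic-like cells in control mice and 67.6% ± 7.75 in ancrod mice (SD, n = 4 each; 80.7% and 85.1% without thinning), against 4.91% of endothelial droplets. Tnf was found in 42.7% ± 9.63 and 46.1% ± 5.54 (66.9% and 71.2%), against 2.19%, and Ccl4 in 75.1% ± 5.85 and 79.3% ± 7.67 (86.9% and 89.2%), against 10.4%. Transcripts of these inflammatory mediators were thus found in homeostatic-like cells of both groups at shares well above the endothelial ones. Endothelial droplets serve as a background for free RNA only. Whether the transcripts arose in the lesion or during dissociation of the tissue was not tested. The differences between groups depended on single mice, being 0.619 points for Ccl3 and 0.995 for Ccl4 without ancrod mouse 4, and 1.51 and 1.40 without control mouse 1.

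Il1b was found in 10.8%, 16.4%, 21.0% and 12.7% of the cells in control mice and 27.8%, 19.2%, 14.5% and 23.2% in ancrod mice (27.2% and 37.1% on average without thinning), a difference of 5.96 points (exact permutation test, p = 0.143, adjusted p = 0.321), with overlap and an endothelial share of 1.46%. With any 1 mouse left out it ran from 3.74 points (without ancrod mouse 1) to 8.195 points. Cd74 was found in 12.5%, 11.99%, 13.3% and 33.6% in control mice and 10.5%, 8.93%, 10.6% and 11.3% in ancrod mice (42.7% and 36.3% on average without thinning), a difference of -7.53 points (exact permutation test, p = 0.0286, the smallest possible, adjusted p = 0.257), against 1.54%. Without control mouse 4 the difference in Cd74 was -2.27 points. Lyz2 was found in 55.1% ± 4.54 and 61.5% ± 3.80 (91.9% and 95.6% without thinning; exact permutation test, p = 0.0857, adjusted p = 0.321), against 13.6%. Apoe was found in 90.3% ± 4.73 and 95.9% ± 2.80 (98.9% and 99.8%), against 80.2% of endothelial droplets. Its difference ran from 3.61 to 6.94 points with any 1 mouse left out. The share of Spp1 (30.4% and 34.1%, endothelial 30.2%) was at the level of endothelial droplets and was read as background. Fos was found in 67.9% and 71.7%, and as endothelial cells express it too, their share is no background for it, and the difference was 0.294 points without ancrod mouse 1. Endothelial droplets had a median of 8293 to 20027.5 UMIs before thinning.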

How the data were processed

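Single cells from the lesion of 8 mice had been captured on the 10x Genomics platform (3′ v3.1). Per library, the authors deposited the raw matrix of UMI counts for 21848 genes over all droplets, made with Cell Ranger 7.1.0 on GRCm39 (mm39); the submitters' notes also name STAR. The counts were used as deposited, without normalization, and intervals between mice, not between cells, measured the error. The labels name C57Bl/6J females and the study's methods another substrain and both sexes.

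Droplets were gated as given above (no doublet caller, an alternative with Scrublet in scanpy 1.11.5). The rule, the gene lists and the tests were chosen with earlier results of these data known. Depth was 97861434 to 142139441 UMIs per library. UMIs of homeostatic-like cells were summed per mouse, filtered with filterByExpr, scaled with TMM and tested with glmQLFTest of edgeR 4.0.16 in R 4.3.3, with Benjamini-Hochberg adjustment over all genes at 0.05; DESeq2 1.42.0 was the alternative. Shares had 1 value per mouse, and group means were compared by exact permutation, two-sided (scipy 1.17.1), adjusted over 4 share comparisons and over 9 genes.

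Named genes were the 10 largest changes per direction among genes past the threshold without overlap and with a mean of at least 10 CPM, filled with those of lowest p where fewer passed, the 2 members of lowest p of each list, the 15 highest and 15 lowest genes of the state description with the same sign in 8 of 8 mice and at least 50 CPM in the higher state, and the 5 interaction genes of lowest p. P2ry12 and the other genes of the rule were described without a test between states. The 2 edgeR tests were tried on simulated counts, with 100 genes changed by a log2 of 0.5 and 100 by a log2 of 1. The test of ancrod against saline recovered 28% and 76% of them, and the interaction 5% and 49%. Counts were drawn once per test around a common mean of each gene. They held no difference between states and no effect shared by the sums of a mouse. The percentages of the interaction may therefore differ from those in the real sums. Tried as alternatives were other size factors and filters, cuts, depths, thinning, doublet removal, free RNA (droplets of at most 100 UMIs) subtracted, a batch covariate, a replicate block and leaving out each mouse. Promoters were read from the GRCm39 sequence. Trbc2 and Meg3 of the marker lists were not among the features used here. Results of some genes are not reported here.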

Additional observations from a re-analysis of the deposited data

Results flagged for a closer look

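Among 164 groups of 4 mice examined, 15 had a mouse whose distance to the nearest other mouse was large against the range of the group (Dixon's criterion at the 95% level, which chance meets in about 1 of 20 groups), and each is given as a value without an explanation. Control mouse 4 stood apart in antigen presentation and in a neutrophil gene: 33.6% of its homeostatic-like cells had a UMI of Cd74 after thinning (other control mice 11.99% to 13.3%), H2-Q4 was at 119 CPM (71.6 to 73.9) and S100a9 at 25.8 CPM (0.0717 to 2.83). Control mouse 1 had the lowest share of microglia among kept droplets, 42.1% (46.8% to 47.6%), and the lowest Csf2rb, 63.8 CPM (78.9 to 80.3). Control mouse 3 was high in the chemokine gene Ccl7, 23.1 CPM (6.33 to 7.23), and in the mannose receptor gene Mrc1, 46.0 CPM (20.5 to 24.6), a marker of border-associated macrophages. Control mouse 2 was low in Cspg4, 0.81 CPM (1.54 to 1.66).

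Of the ancrod mice, mouse 1 was high in Cd63, 850 CPM (726 to 737). Mouse 2 was low in Tap2, 44.2 CPM (47.9 to 48.4), and in Ccl7, 3.21 CPM (6.45 to 6.76), and high in the astrocyte gene Gja1, 68.3 CPM (16.7 to 22.8). Mouse 4 was low in Mertk, 790 CPM (872 to 887), and in the share of cells with a UMI of Lyz2, 55.9% (63.0% to 64.2%), and high in the neuronal gene Rbfox3, 10.7 CPM (1.51 to 2.20).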

How the results depend on the processing

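The 4 share comparisons kept their direction under 18, 18, 17 and 14 alternatives, some of them chosen after seeing the data. The replicate block and the labels permuted within batch recalculated only p, so the direction could not change in them. The 14 of the median injury score leave out the settings with thinning and the labels permuted within batch. None passed the adjusted threshold, but several could not have done so. With all 8 mice the smallest p was 0.0286, at which 1 share alone could not pass adjustment over 4. The smallest p that the exact permutation test allowed was 0.0571 with 1 mouse left out and 0.1 in batch 1 alone. It was 0.05 with labels permuted within batch. With 1 mouse left out the differences ran from -9.59 to -5.45 points (homeostatic-like among microglia), -6.51 to -4.76 (among kept droplets), -8.08 to -4.29 (microglia among kept droplets) and 0.204 to 0.644 cp10k (median injury score). The median injury score could not be compared at 2000 UMIs, where its median was 0. With droplets thinned to 5000 UMIs its mean was 0.5 cp10k in control mice and 1.5 cp10k in ancrod mice (exact permutation test, p = 0.486). The count of genes changed by ancrod, 0, became 72 with DESeq2, 1 with the cut at the median of each library (Tagln), 1 in batch 1 alone (Tagln) and 0 to 2 with 1 mouse left out (Nalf1 and Tagln without ancrod mouse 4). At an unadjusted edgeR p below 0.05 the count was 951 to 1556 with 1 mouse left out. It was 484 in all microglia together, 830 with the replicate block and 1713 without the filter on low counts. The interaction count, 0, became 76 with DESeq2, 23 with the cut at the pooled lower quartile, 9 with thinned cells and 0 to 87 with 1 mouse left out (7 without control mouse 1, 2 without ancrod mouse 3, 87 without ancrod mouse 4). The cause of these differences was not tested. Of the shares of cells with a UMI, Tnf (-0.0755 to 6.90 points) and Spp1 (-2.79 to 8.68) changed sign with 1 mouse left out, namely control mouse 1 for Tnf and ancrod mouse 3 for Spp1. Signs of single genes turned for H2-Q4 (0.031), Tap2 (0.014) and Cd74 (0.078) in batch 1 alone, for Tap2 with 1 mouse left out (-0.190 to 0.026, the latter without control mouse 4), and for Myh11 (0.092) and Acta2 (0.142) in all microglia together. Same-numbered mice of the groups did not deviate together in these sums (correlations of -0.300, -0.289, -0.0975 and 0.108). Such correlations cannot show whether same-numbered mice were handled together, and the mice numbered 4 share batch 2. With the replicate block 2 genes were called (Nxph1, Myh11). The p of the 4 shares by exact sign flips were 0.375, 0.125, 0.25 and 0.375, where 0.125 is the smallest possible.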
